A study of Mus musculus with 14 samples.

Results

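The liver makes most of the proteins of blood clotting and of complement, and 35 genes for such proteins were chosen by symbol: 10 procoagulant factors, 4 anticoagulants, 3 genes of fibrinolysis and 18 complement genes. Of these, 32 had a row on the array and are described here, among 19505 named genes in all; Klkb1, Cpb2 and C3 were not analysed here. Their levels were compared between control livers and livers whose hepatocytes were targeted for loss of the catalytic subunits of AMP-activated protein kinase (AMPK). AMPK is an enzyme that responds to low cellular energy. In the targeted livers the RNA of the subunit genes Prkaa2 and Prkaa1 was at 0.458-fold and 0.629-fold of control, and AMPK protein was not analysed here. No member passed the threshold of the comparison, and every 95% interval lay within a 1.5-fold difference in either direction. Intervals that narrow were common on these arrays, with 18690 of the 19505 genes having one.

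The 14 liver samples came from male mice of C57BL/6 background in which both AMPK alpha genes, Prkaa1 and Prkaa2, carried homozygous floxed alleles, so that Cre recombinase could cut part of each gene out. The mice were 6 weeks old at the start, ate a high-fat diet for 4 weeks and were then injected through the jugular vein with an adeno-associated virus of serotype AAV8. In 6 controls the virus was the AAV8-TBG-empty vector, and in 8 knockouts it was AAV8-TBG-Cre. All mice of both groups had metformin at 50 mg/kg/day for 3 weeks and were fasted for 16 h, and the labels give an age of 4 months. Metformin is a glucose-lowering drug; livers without it were not analysed here. The TBG promoter directs Cre to hepatocytes, so the other cells of the liver were meant to keep the floxed alleles intact. In whole liver RNA, fewer cells of a type and less RNA per cell cannot be told apart.

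Values are array levels on a log2 scale, on which a difference of 1 is a doubling; differences are knockout minus control throughout, with the standard error (SE). The correlations between arrays split the samples into 2 sets, for which no label gives a reason: 3 controls (1 to 3) and 4 knockouts (1 to 4) made up set 1, and the other samples set 2. The comparison was therefore made with the set as a term in limma, with Benjamini-Hochberg adjustment over the 19505 genes and a threshold of 0.05. For single genes an exact permutation test, two-sided, reassigned the arrays within the sets (1225 splits, smallest possible p 0.000816), with no adjustment for the number of genes. Since no label ties a sample to a mouse of its own, the spread behind each p-value is that of these samples and may be technical in part.

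Prkaa2 read 8.76 to 8.96 in the controls of set 1 and 7.58 to 7.82 in its knockouts, and 9.67 to 9.91 against 8.45 to 8.78 in set 2. Prkaa1 read 6.35 to 6.63 against 5.78 to 6.25 in set 1, and 7.18 to 7.50 against 6.03 to 6.86 in set 2. All 8 knockouts lay below the controls of their own set for both genes. The differences were -1.13 for Prkaa2 (limma adjusted p = 1.92e-06) and -0.67 for Prkaa1 (limma adjusted p = 0.0303); where the probes lie relative to the removed part is not given in the sources used here. Markers of hepatocytes averaged 12.69 to 13.03 over 12 genes in the controls and 12.68 to 13.03 in the knockouts, and none of them passed the threshold. No list of Kupffer cell, endothelial, stellate, bile duct or blood cell markers had a gene past the threshold. Control 1 and control 4 stood apart: they lay 0.67 and 0.53 below the mean of their set for 12 endothelial markers, 0.58 and 0.38 below it for 11 Kupffer cell markers, and 0.52 and 0.47 above it for 19 acute phase genes. Knockout 1 was also low for these cell markers, by 0.32 for the endothelial and 0.44 for the Kupffer cell list. The mean over the 32 members in control 1 and control 4 was 0.08 and 0.07 above that of their set. It was highest in control 6, at 0.11 above its set, whose acute phase genes lay 0.03 above theirs and whose endothelial and Kupffer cell markers lay 0.16 and 0.03 above theirs.

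Clotting runs as a chain of serine proteases, each activating the next, that ends in thrombin and a fibrin clot; plasmin later dissolves the clot, and inhibitors hold each step in check. Complement is a second protease chain in plasma. Its recognition proteins bind a surface, the C3 and C4 fragments coat it, and the components from C5 to C9 assemble into a pore. Hepatocytes secrete nearly all of these proteins, and liver factors such as HNF1, HNF4 and C/EBP are known to act on many of their promoters.

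The bases before the start of F7, Mbl2, C8a and C8b are shown because these genes carry the comparisons below: F7 and Mbl2 had the smallest p-values in either direction, and C8a and C8b are neighbours for subunits of a single protein. Each stretch is the 250 bases upstream of the start in the RefSeq promoter table (GRCm38.p6), read 5′ to 3′ on the gene's strand. F7 lies at chr8:13025784-13026033 on the plus strand, Mbl2 at chr19:30232678-30232927 on the plus strand, C8a at chr4:104876399-104876648 on the minus strand and C8b at chr4:104766067-104766316 on the plus strand. The whole F7 stretch, 89 bases of the C8a stretch and 22 bases of the Mbl2 stretch lie inside the span of the gene as RefSeq gives it. Capitals mark a match to an HNF4 direct repeat in F7 and to an HNF1 motif in C8a and C8b; Mbl2 held none of the 3 motifs searched.
F7: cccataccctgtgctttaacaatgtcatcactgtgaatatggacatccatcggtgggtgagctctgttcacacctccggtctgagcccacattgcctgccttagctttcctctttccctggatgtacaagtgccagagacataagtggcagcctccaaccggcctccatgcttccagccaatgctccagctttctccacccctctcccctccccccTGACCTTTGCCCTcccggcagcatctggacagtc
Mbl2: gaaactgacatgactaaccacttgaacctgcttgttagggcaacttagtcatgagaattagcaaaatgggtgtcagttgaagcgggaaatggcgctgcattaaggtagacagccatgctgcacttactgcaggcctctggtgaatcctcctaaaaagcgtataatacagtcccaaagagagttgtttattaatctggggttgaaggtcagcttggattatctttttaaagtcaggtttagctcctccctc
C8a: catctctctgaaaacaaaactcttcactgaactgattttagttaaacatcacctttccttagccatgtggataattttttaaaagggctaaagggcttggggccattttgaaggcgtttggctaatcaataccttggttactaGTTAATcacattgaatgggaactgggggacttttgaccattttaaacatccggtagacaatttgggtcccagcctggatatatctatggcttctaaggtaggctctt
C8b: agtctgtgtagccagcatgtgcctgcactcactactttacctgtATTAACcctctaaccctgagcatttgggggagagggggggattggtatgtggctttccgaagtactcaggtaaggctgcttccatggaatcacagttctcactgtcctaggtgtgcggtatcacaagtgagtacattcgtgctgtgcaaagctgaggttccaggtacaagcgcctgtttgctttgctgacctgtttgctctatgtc
The HNF1 motif searched was GTTAAT, the HNF4 repeat AGGNCA given 2 times with 1 base between, and the C/EBP motif TTGCNNAA, each on both strands, and the matches shown do not overlap one another. A promoter was found for 23 of the 32 members. GTTAAT occurred in 6 of them (C1ra, C8a, C8b, F13b, Hc and Vtn), or 26.1%, against 7.49% of 27025 genes with a promoter. The HNF4 repeat occurred in F7 alone, or 4.35% of these members against 0.400% of genes. TTGCNNAA occurred in C9, F11 and F9, or 13.04% against 10.8%. In F7 the match lay at -34 to -22 from the start on the minus strand, in C8a at -107 to -102 on the plus strand, and in C8b at -206 to -201 on the minus strand, counting the gene's own strand as plus. A match is a run of letters and not a measured binding site.

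Across the 32 members, 23 differences were below 0 and 9 above it. The share below 0 was 71.9%, against 49.5% of all genes and 45.4% of those with a mean level of at least 9. The median was -0.06, against 0.00 over all genes and 0.01 over the 2328 genes with a mean level of at least 9, the range in which the members lie. The median was -0.04 without control 1 and control 4 or without control 6 alone, and -0.10 with arrays centred on their brightest genes. The differences ran from -0.32 for C4b to 0.29 for Mbl2. None passed the threshold, where 137 genes (0.702%) did among all those tested, 84 of them higher (0.431%) and 53 lower (0.272%). These counts over all genes were themselves unstable: with each array left out they ran from 30 to 84 higher and from 14 to 48 lower, the lowest without control 4, and without knockout 7 and 8 they were 8 and 4. At an unadjusted limma p under 0.05, 7 members were counted, or 21.9%, against 10.4% of all genes. Of these, 6 were lower in knockout (18.8%, against 4.83% of all genes and 6.36% of genes at level 9 or above) and 1 was higher (3.13%, against 5.53% and 11.4%). The median SE of the members' differences was 0.07, as it was over the 2328 genes at level 9 or above, against 0.10 over all genes. Of the members' intervals 19 of 32 lay within 1.2-fold either way, as did 1488 of the 2328 genes at level 9 or above. All 32 lay within 1.5-fold, as did 2253 of those 2328 genes. The lowest bound of any interval was -0.51 (1.42-fold lower, C4b) and the highest 0.46 (1.38-fold higher, Mbl2). In the plot of the member differences, 25 of the 32 intervals cross 0.

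**Figure D1:**
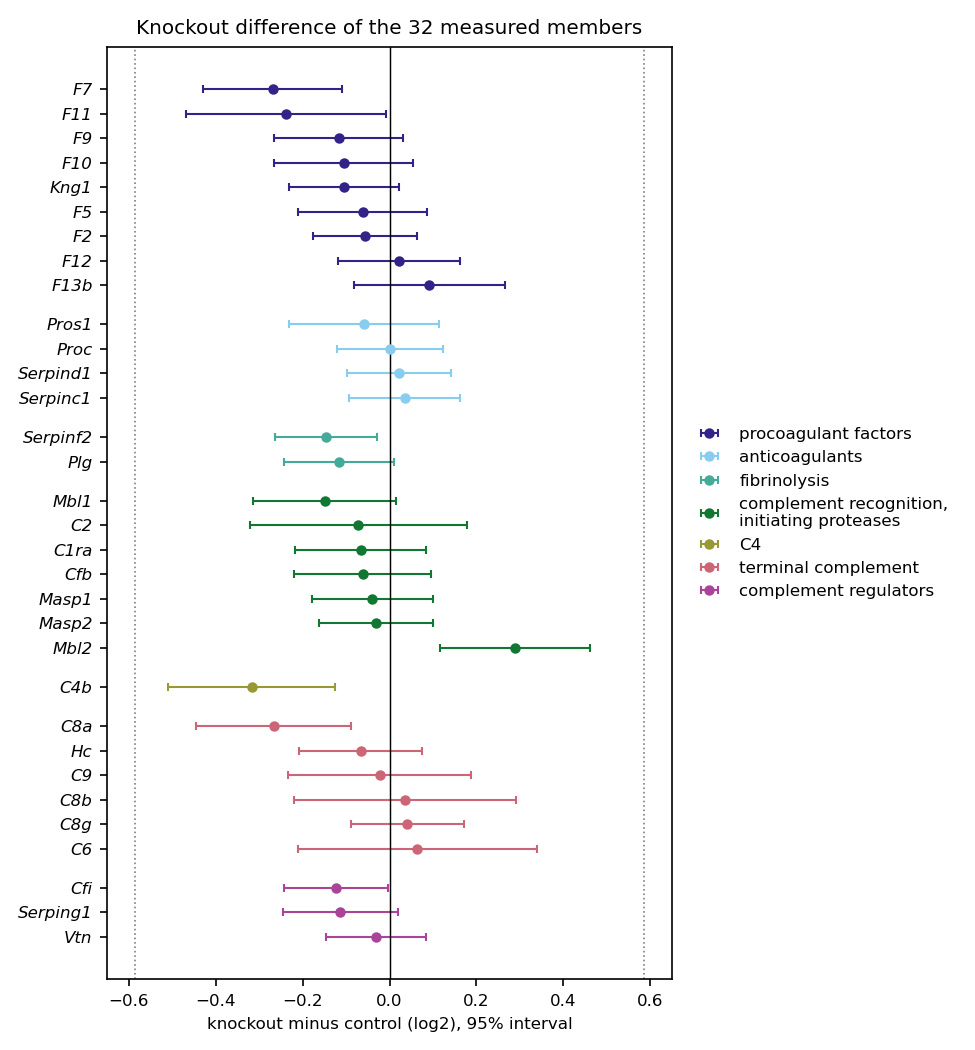
Knockout minus control difference (log2) of each of the 32 measured members with its 95% interval from limma with the array set as a term, grouped by role; dotted lines mark a 1.5-fold difference. All 32 intervals lie between the dotted lines, and 25 of them cross 0.

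Among the calling rules tried, the choice of error model decided whether any member was called. The default moderated test of limma draws every gene toward a single prior SD, here 0.18, whereas the median SD of a member within a group and set was 0.09. With a prior that follows the level and is robust to outlying genes, the prior SD at the members' levels was 0.06 to 0.13. That alternative called 5 members, or 15.6%, against 1.67% of all genes. Mbl2 was called higher (adjusted p = 0.0141), and F7 (0.0188), Serpinf2 (0.0299), C8a (0.0421) and C4b (0.0477) were called lower, by limma with trend and robust. The 4 lower calls compare with 0.636% of all genes and 2.1% of genes at level 9 or above, and the 1 higher call with 1.03% and 5.07%. When each of the 14 arrays was left out in turn under this model, Mbl2 was called in 14 fits, F7 in 11, Serpinf2 in 6, and C4b and C8a in 3 each. No lower call was left without control 4, without control 6 or without control 1 and control 4 together, and Mbl2 was no longer called without knockout 7 and 8 (limma trend and robust adjusted p = 0.0970).

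The procoagulant factors had 9 measured members, of which 7 had a difference below 0 and none passed; their median was -0.10. F7 encodes factor VII, which starts clotting when it meets tissue factor. F7 read 10.50, 10.34 and 10.42 in the controls of set 1 and 10.19, 10.13, 10.22 and 10.33 in its knockouts, and 10.56, 10.27 and 10.51 against 10.01, 10.11, 10.03 and 10.32 in set 2. In 7 of the 8 knockouts the level was below every control of the same set; knockout 8 of set 2 lay within the controls. The difference was -0.27 ± 0.08 (SE), or 0.830-fold with a 95% interval of 0.743 to 0.928, with a limma adjusted p of 0.149 and an exact permutation p of 0.00327. It was -0.20 in set 1 and -0.33 in set 2.

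F11 encodes factor XI, which thrombin or factor XII activates to amplify clotting. F11 was at 8.60, 8.83 and 8.62 in the set 1 controls and at 8.78, 8.39, 8.55 and 8.48 in the set 1 knockouts, and at 9.44, 9.66 and 10.09 against 9.48, 9.10, 9.57 and 9.39 in set 2. The groups overlapped in both sets, and the difference of -0.24 ± 0.11 gave a limma adjusted p of 0.461 and an exact permutation p of 0.0514. Without control 6, the highest of the controls, F11 differed by -0.15 (limma adjusted p = 0.676). The vitamin K-dependent proteases F9 and F10 had differences of -0.12 ± 0.07 and -0.11 ± 0.08 (SE). Kng1, the kininogen that carries bradykinin, had -0.10 ± 0.06. The cofactor gene F5 had -0.06 ± 0.07 and F2, which encodes prothrombin, -0.06 ± 0.06. F12, which starts the contact pathway, had 0.02 ± 0.07, and F13b, the carrier subunit of the clot-crosslinking enzyme, 0.09 ± 0.08. All of these 7 intervals held 0.

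The 4 anticoagulant genes lay close to 0, with a median of 0.01 and all 4 intervals within 1.2-fold. Serpinc1, which encodes antithrombin, had a difference of 0.03 ± 0.06, and Serpind1, heparin cofactor II, 0.02 ± 0.06. Proc, the protein C gene, had 0.00 ± 0.06 with a 95% interval from -0.12 to 0.12. Pros1, the protein S cofactor of protein C, had -0.06 ± 0.08. That none passed does not show that the groups were equal, but differences beyond 1.2-fold lie outside these intervals.

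Both measured genes of fibrinolysis had differences below 0. Serpinf2 encodes alpha2-antiplasmin, the main inhibitor of plasmin. Serpinf2 read 11.57, 11.63 and 11.65 in the set 1 controls against 11.43, 11.42, 11.46 and 11.49 in the knockouts, and 12.23, 12.15 and 12.21 against 12.02, 12.07, 12.09 and 12.09 in set 2. All 8 knockouts lay below every control of their set, with the small difference of -0.15 ± 0.06 (0.904-fold) and an SD of 0.04 within group and set. The exact permutation p was the smallest possible, 0.000816, and the limma adjusted p 0.338.

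Plg encodes plasminogen, the precursor of plasmin. Plg read 12.11, 12.01 and 11.97 in the set 1 controls and 11.95, 11.93, 11.92 and 11.80 in the knockouts, and 12.79, 12.67 and 12.79 against 12.58, 12.69, 12.66 and 12.65 in set 2. The groups were apart in set 1 and overlapped in set 2, at a difference of -0.12 ± 0.06 (limma adjusted p = 0.539, exact permutation p = 0.00245). Plg thus had a difference of similar size to that of Serpinf2, but 1 knockout lay within the controls of its set.

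**Figure D2:**
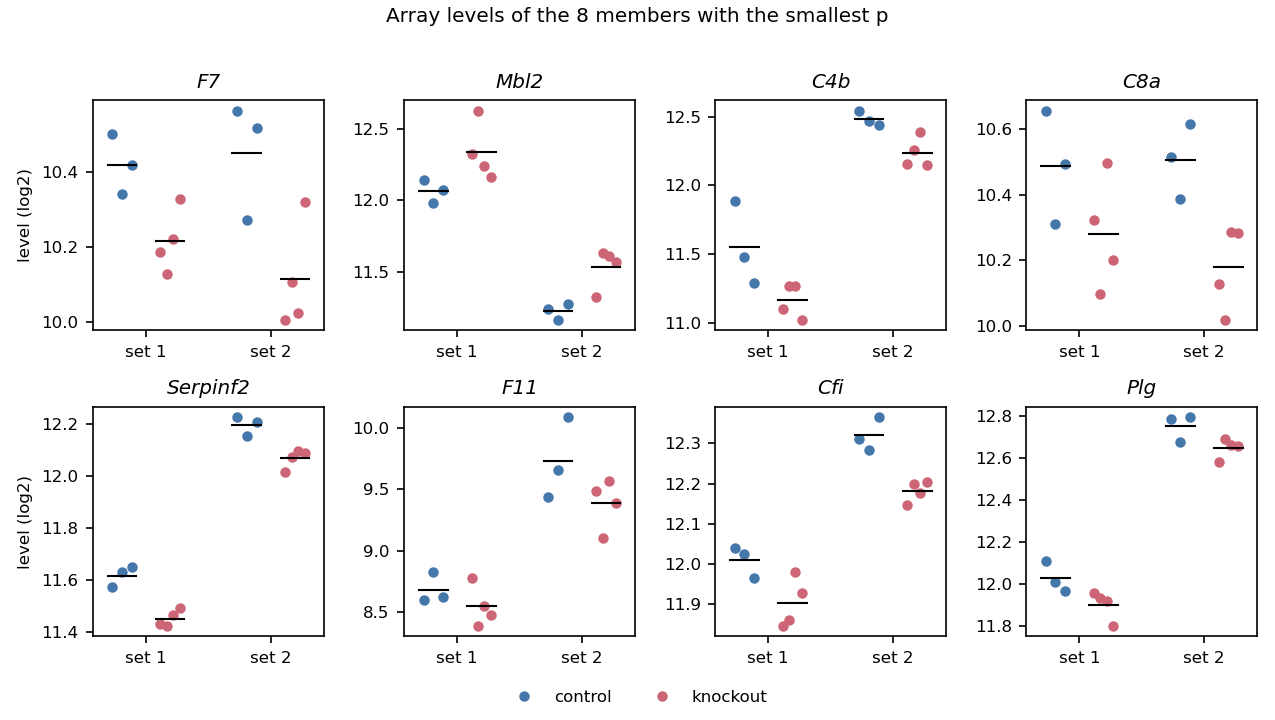
Array level (log2) of the 8 members with the smallest p, by array set, with controls in blue and knockouts in red; each point is a sample and each bar the mean of its group and set, and the vertical scale differs between panels and does not start at 0. Every knockout lies above the controls of its set for Mbl2 and below them for C4b and Serpinf2, and the groups overlap for F11.

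Of the 7 genes for complement recognition proteins and initiating proteases, 6 had a difference below 0 and Mbl2 had one above it. Mbl1 and Mbl2 encode the mouse mannose-binding lectins A and C, which bind sugars on microbes and start the lectin pathway. Mbl2 was at 12.15, 11.98 and 12.08 in the set 1 controls and at 12.32, 12.63, 12.24 and 12.16 in the knockouts, and at 11.24, 11.16 and 11.27 against 11.32, 11.63, 11.61 and 11.57 in set 2. All 8 knockouts lay above every control of their set, which 151 of all genes (0.774%) also did; the groups did not overlap in either set, in either direction, for 1.31% of genes and for 3 members, Mbl2, C4b and Serpinf2. The difference was 0.29 ± 0.08, or 1.22-fold with a 95% interval of 1.08 to 1.38 (limma adjusted p = 0.149, exact permutation p = 0.00327), and it was 0.27 in set 1 and 0.31 in set 2.

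Mbl1 read 11.04, 10.94 and 10.92 in the set 1 controls and 10.98, 10.94, 10.99 and 11.03 in the knockouts, and 10.76, 10.75 and 10.55 against 10.47, 10.23, 10.45 and 10.35 in set 2. The groups overlapped in set 1 and were apart in set 2. The differences of 0.02 in set 1 and -0.32 in set 2 gave an interaction p of 0.0238 before adjustment and an adjusted p of 1 by limma; Mbl1 was the 1 member past an unadjusted 0.05 for this interaction, where 4.83% of all genes were. Over both sets Mbl1 differed by -0.15 ± 0.08 (limma adjusted p = 0.545).

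C1ra, a protease of the C1 complex, had a difference of -0.07 ± 0.07; C1rb is a close copy, and signal from either may reach this row. The lectin-pathway proteases Masp1 and Masp2 had -0.04 ± 0.07 and -0.03 ± 0.06 (SE). C2 and Cfb, which supply the catalytic subunits of the classical and the alternative C3 convertases, had -0.07 ± 0.12 and -0.06 ± 0.07. These 5 intervals held 0.

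C4b encodes complement C4, whose fragment coats surfaces in the classical and lectin pathways. C4b read 11.89, 11.48 and 11.29 in the set 1 controls and 11.10, 11.27, 11.27 and 11.02 in the knockouts, and 12.54, 12.47 and 12.44 against 12.15, 12.26, 12.39 and 12.15 in set 2. All 8 knockouts lay below every control of their set, which 105 of all genes (0.538%) also did, and control 1 was the highest of set 1 by a wide margin. The difference of -0.32 ± 0.09 was the lowest among the members, 0.802-fold with a 95% interval of 0.702 to 0.917, and the limma adjusted p was 0.153. The exact permutation p was the smallest possible, 0.000816.

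C4a is a close copy of C4b outside the 35 genes, and signal between these rows may not be separable. C4a read 11.41, 11.17 and 11.01 in the set 1 controls and 10.96, 11.01, 11.03 and 11.02 in the knockouts, and 11.19, 10.88 and 10.78 against 10.38, 10.62, 10.67 and 10.44 in set 2, with control 1 and control 4 the highest of their sets. Its difference was -0.31 ± 0.09 (limma adjusted p = 0.163), close to that of C4b. Of 19 acute phase genes, 18 had a difference below 0 (median -0.22), where 49.5% of all genes did. Of these 19 Apcs and Lrg1 alone passed the threshold, with -0.76 (limma adjusted p = 0.0254) and -0.50 (limma adjusted p = 0.0450). Without control 1 and control 4, the arrays with the highest acute phase levels of their sets, C4b differed by -0.22 (limma adjusted p = 0.336) and C4a by -0.19 (limma adjusted p = 0.412). The part of the acute phase genes in these differences was not tested.

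The 6 terminal components split evenly, with 3 differences on either side of 0 and a median of 0.01. C8 is built from the products of C8a, C8b and C8g. C8a read 10.66, 10.31 and 10.49 in the set 1 controls and 10.32, 10.10, 10.50 and 10.20 in the knockouts, and 10.52, 10.39 and 10.61 against 10.13, 10.02, 10.29 and 10.28 in set 2. The groups overlapped in set 1 and were apart in set 2, and the difference was -0.27 ± 0.08, or 0.831-fold (limma adjusted p = 0.213, exact permutation p = 0.00980).

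C8b read 11.13, 10.84 and 11.13 in the set 1 controls and 11.28, 10.82, 11.23 and 11.27 in the knockouts, and 11.03, 10.97 and 11.33 against 11.19, 10.57, 11.31 and 11.20 in set 2. The groups overlapped in both sets, with knockout 2 and knockout 6 the lowest arrays, at a difference of 0.04 ± 0.12. C8g read 12.70, 12.53 and 12.54 in the set 1 controls and 12.63, 12.77, 12.63 and 12.66 in the knockouts, and 12.40, 12.29 and 12.27 against 12.26, 12.37, 12.30 and 12.35 in set 2. These groups overlapped as well, at 0.04 ± 0.06.

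C6, the component that follows C5 into the pore, had the widest interval of all members, from -0.21 to 0.34 around a difference of 0.06. It read 11.32, 11.30 and 11.68 in the set 1 controls and 11.73, 11.12, 11.70 and 11.58 in the knockouts, and 11.16, 11.32 and 11.55 against 11.56, 10.87, 11.64 and 11.42 in set 2, so that again knockout 2 and knockout 6 were lowest. Hc, the mouse gene for C5, differed by -0.07 ± 0.07 and C9, the pore-forming subunit, by -0.02 ± 0.10.

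The complement regulators had 3 differences below 0, and none passed. Cfi encodes factor I, the protease that inactivates the C3 and C4 fragments. Cfi read 12.04, 12.02 and 11.97 in the set 1 controls and 11.85, 11.86, 11.98 and 11.93 in the knockouts, and 12.31, 12.28 and 12.37 against 12.15, 12.20, 12.18 and 12.20 in set 2. The groups overlapped by a single knockout in set 1 and were apart in set 2, at -0.12 ± 0.06 (limma adjusted p = 0.469, exact permutation p = 0.00163).

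Serping1, the C1 inhibitor, which also blocks the contact proteases of clotting, had -0.11 ± 0.06. Vtn encodes vitronectin, which binds the terminal complex and keeps it out of membranes, and had the narrowest interval, from -0.15 to 0.09 around -0.03. Vtn read 13.12, 13.15 and 13.18 in the set 1 controls and 13.12, 13.17, 13.10 and 13.14 in the knockouts, and 13.48, 13.47 and 13.48 against 13.40, 13.43, 13.45 and 13.45 in set 2. The whole spread of Vtn within a set was thus under the size of the differences of F7, Mbl2, C4b and C8a. Those genes varied more themselves. Their SD within group and set was 0.12, 0.14, 0.17 and 0.15, against 0.02 for Vtn.

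Both sets were compared for all members. The sign of the difference was below 0 in both sets for 19 members, above 0 in both for 5 and opposite for 8. Over all 19505 genes these counts were 5215, 5568 and 8722. Over the 2328 genes at level 9 or above they were 635, 889 and 804. The medians over the members were -0.05 in set 1 and -0.06 in set 2. No gene passed the adjusted threshold for a difference between the sets in the knockout effect, and 943 genes (4.83%) did before adjustment. The sets also differed in level for the members themselves: 14 of 32 had set means more than 0.5 apart, from -0.99 to 1.39 (set 2 minus set 1). Without the set term this gap entered the spread, and limma called 0 of the 19505 genes (655, or 3.36%, at an unadjusted p under 0.05, of which 2 were members).

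**Figure D3:**
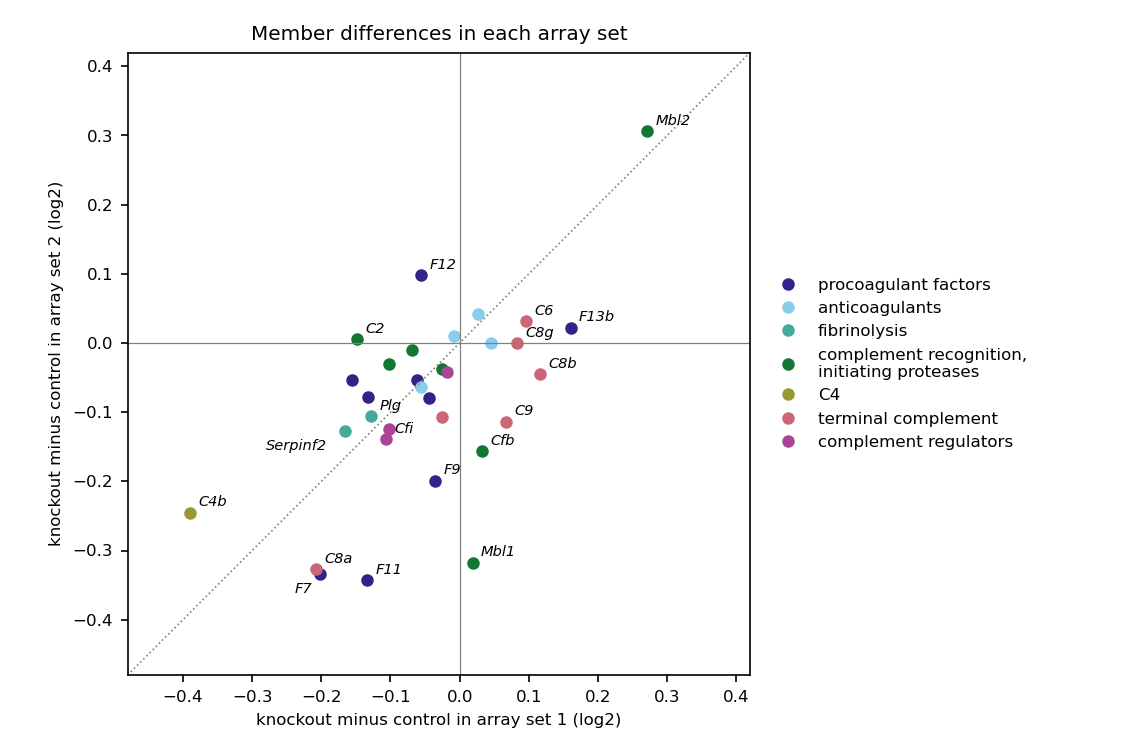
Knockout minus control difference (log2) of each of the 32 members in array set 1 (horizontal axis) and array set 2 (vertical axis), coloured by role, with a dotted line of equal differences. C4b, C8a, F7 and F11 lie to the lower left and Mbl2 to the upper right, while Mbl1 is near 0 in set 1 and at -0.32 in set 2.

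Members that belong together were set against each other within each array, which removes what shifts both rows of an array equally. The 6 pairs were taken by position, shared complex or kinship, with the differences of the members already known, and p-values were adjusted over the 6 pairs. The SE and interval of a pair came from an ordinary linear fit with the set as a term, without the moderation of limma. C8b minus C8a, neighbours on chromosome 4, was 0.30 ± 0.09 higher in knockout (95% interval 0.11 to 0.49, exact permutation p = 0.00898, adjusted 0.0180), with 7 of 8 knockouts above the controls of their set. C8a minus C8g was lower, at -0.31 ± 0.09 (exact permutation p = 0.00408, adjusted 0.0147), with 7 of 8 knockouts below. C8b minus C8g was -0.01 ± 0.15, with an interval from -0.33 to 0.32. The estimate for C8a was thus below those of both partner subunits in these samples, while for C8b against C8g the interval covered 0 widely. C8a by itself did not pass (limma adjusted p = 0.213). The pairs were taken with the differences known, and adjustment over 6 pairs does not allow for that choice.

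Mbl2 minus Mbl1 was 0.44 ± 0.12 higher in knockout (95% interval 0.18 to 0.69, exact permutation p = 0.00490, adjusted 0.0147), with 7 of 8 knockouts above. F7 minus F10, neighbours on chromosome 8, was -0.16 ± 0.10 (exact permutation p = 0.115, adjusted 0.173). Cfb minus C2, neighbours on chromosome 17, was 0.01 ± 0.14, with an interval from -0.31 to 0.33. For these last pairs no difference was detectable at this spread.

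**Figure D4:**
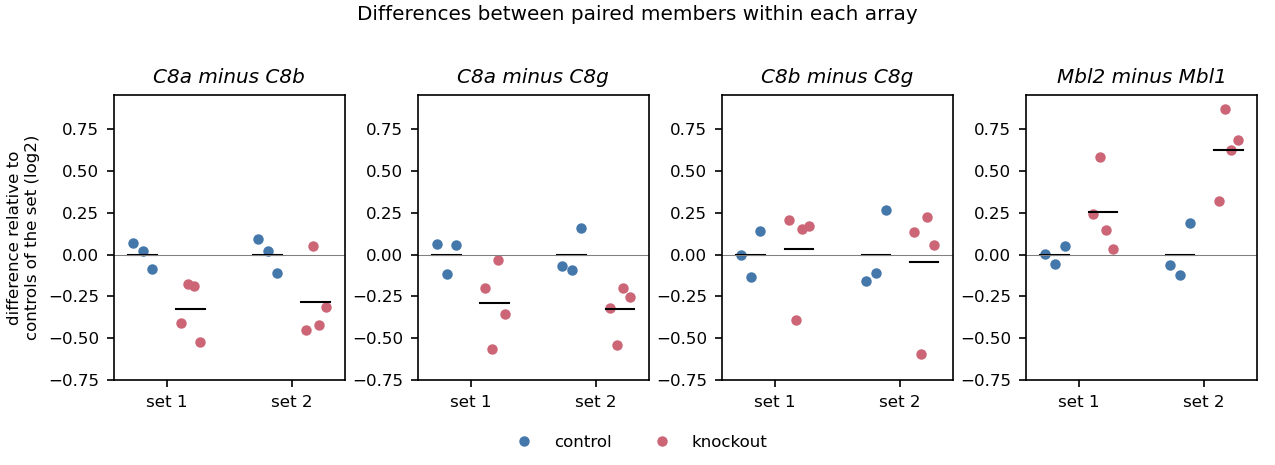
Difference between members of a pair within each array (log2), set to 0 at the mean of the controls of the same array set; each point is a sample, with controls in blue, knockouts in red and bars at the means. For C8a minus C8b and C8a minus C8g, 7 of 8 knockouts lie below the controls of their set, and for Mbl2 minus Mbl1, 7 of 8 lie above.

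Several terminal components varied together from sample to sample within the groups, while the 5 pairs of C8g had r from -0.72 to 0.03. Deviations from the mean of the own group and set were correlated over the 14 arrays for the 15 pairs of the 6 genes, a step chosen after seeing the data, with an exact permutation of the arrays within group and set (20736 orderings). C8a and C9 had Pearson r = 0.87 and Spearman rho = 0.91, each with an exact p of 4.82e-05, the smallest possible, and 0.000723 adjusted over the 15 pairs. Within the sets the r was 0.97 in set 1 and 0.98 in set 2, and without knockout 2 and knockout 3, the farthest arrays for C8a, it was 0.90. Arrays high for C8a were thus high for C9, in controls and knockouts alike.

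C6 and C8b had r = 0.91 (exact p = 0.00444, adjusted 0.0111) and rho = 0.80 (exact p = 0.00487, adjusted 0.0217). Within the sets r was 0.84 and 0.96, and it was 0.75 without knockout 6 and knockout 2, the low arrays named above. Hc and C8a had r = 0.80 (exact p = 0.00420, adjusted 0.0111) and rho = 0.78 (exact p = 0.00680, adjusted 0.0217), with 0.67 without knockout 3 and knockout 2 and 0.79 and 0.83 within the sets. C6 and C8g ran opposite, with r = -0.72 (exact p = 0.00608, adjusted 0.0130) but rho = -0.59 (exact p = 0.0588, adjusted 0.107), and r = -0.62 without the 2 low arrays. The other pairs of C8g had r = -0.42 with C8b, -0.03 with C8a, -0.004 with Hc and 0.03 with C9, with exact p from 0.141 to 0.991. C8a and C8b had r = 0.75, Hc and C9 0.75 and C8b and C9 0.76, each with an exact permutation p adjusted to 0.0111. The remaining pairs without C8g had r from 0.38 to 0.61, with exact permutation p adjusted to 0.0929 to 0.318. The median r was 0.55 over the 15 terminal pairs and 0.21 over all 496 pairs of members. Over those 496 pairs, which include the 15 terminal pairs, r ran from -0.88 to 0.91. The highest value was that of C6 and C8b themselves. Rows of an array share its RNA and its hybridisation, and the part of these in the correlations was not tested.

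**Figure D5:**
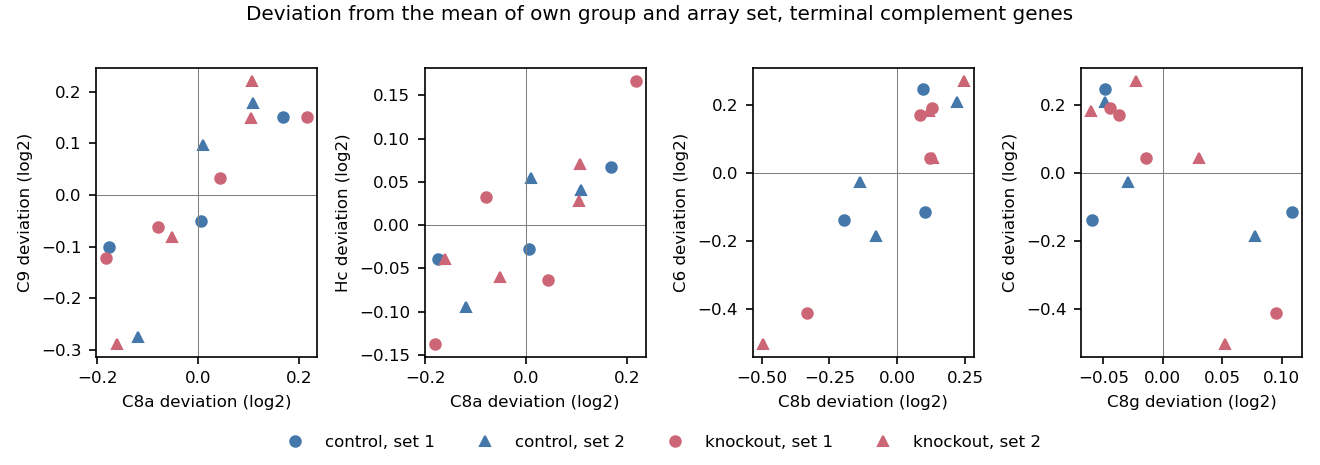
Deviation of the level from the mean of the own group and array set (log2) for pairs of terminal complement genes; each point is one of 14 samples, blue for control and red for knockout, circles for set 1 and triangles for set 2. C8a and C9 rise together (r = 0.87), as do C8a and Hc (r = 0.80) and C8b and C6 (r = 0.91), the last with 2 low knockouts, and C8g and C6 run opposite (r = -0.72).

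No other gene of these pathways passed the threshold. Of 29 further genes of clotting and fibrinolysis, 16 had a difference below 0 and 13 above it (median -0.02), and of 30 further complement genes 14 and 16 (median 0.01). At an unadjusted limma p under 0.05, 6 of the 29 were lower, and 2 of the 30 were lower and 1 higher. Over all genes 4.83% were lower and 5.53% higher by this rule. Serpina10 encodes the protein Z-dependent inhibitor of activated factor X. Serpina10 read 11.51, 11.49 and 11.45 in the set 1 controls and 11.19, 11.25, 11.33 and 11.31 in the knockouts, and 11.42, 11.45 and 11.36 against 11.11, 11.15, 11.26 and 11.07 in set 2. All 8 knockouts lay below every control of their set, at -0.24 ± 0.06 (0.847-fold, limma adjusted p = 0.0911, exact permutation p = 0.000816). Serpina10 passed with quantile normalization (limma adjusted p = 0.0465), with genes of a mean level under 5 left out (limma adjusted p = 0.0322), and with trend and robust (limma adjusted p = 0.00226).

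Kng2, the second mouse kininogen gene and a close copy of Kng1, read 11.83, 11.69 and 11.62 in the set 1 controls and 11.53, 11.51, 11.68 and 11.54 in the knockouts, and 11.67, 11.42 and 11.45 against 11.23, 11.27, 11.35 and 11.33 in set 2. Hrg, a plasma glycoprotein that binds heparin and plasminogen, read 12.05, 11.83 and 11.84 against 11.76, 11.65, 11.79 and 11.67 in set 1, and 12.76, 12.65 and 12.76 against 12.44, 12.69, 12.58 and 12.59 in set 2. Kng2 overlapped in set 1 and Hrg in set 2. Their differences were -0.19 ± 0.07 (limma adjusted p = 0.293) and -0.17 ± 0.07 (limma adjusted p = 0.350). Limma with trend and robust called both lower (adjusted p = 0.0431 for Kng2 and 0.0456 for Hrg). That model also called C4a (0.0263) and Fgb (0.0449) lower, where 0.636% of all genes were called lower. The fibrinogen chains Fga, Fgb and Fgg, the substrate of thrombin, had -0.15 ± 0.07, -0.12 ± 0.06 and -0.11 ± 0.06; these 3 genes were chosen after their values were seen, and none passed the threshold of the comparison.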

How the data were processed

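Liver RNA was labelled with the Affymetrix WT PLUS kit, per the labels, and measured on 14 arrays. The values deposited by the authors are on a log2 scale, from 2.13 to 13.8, with RMA and Partek named without versions, per the submitters' processing notes. They were used without further normalization. Arrays give no read depth, and the number of samples limits the precision.

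Of 22206 rows, 19572 were joined to exactly 1 gene symbol; the brightest row was used for the 55 genes with several rows (no member among them), leaving 19505. Array sets were found from correlations between arrays, 0.988 to 0.994 within and 0.951 to 0.963 across sets. The comparison used lmFit with the default eBayes of limma 3.58.1, run in R 4.3.3, with the set as a term and 11 residual degrees of freedom, beside exact permutations. The fit was tested on simulated data. The members, lists, tests and alternatives were chosen with earlier results of these data known.

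Every member is given; array values are printed for the 8 with the smallest p, the widest and the narrowest interval, the C8 subunits and both lectins, and for the 4 other pathway genes with the smallest p. In their descriptions knockout 7 and 8 bear the same numbers as knockout 5 and 6. No arrays were identical. Knockout 5 and 7 had the lowest correlation among the knockouts of set 2 (0.9889) and knockout 6 and 8 the highest (0.9909), against up to 0.9942 for other arrays of a set. Each array was counted as a sample, and whether these pairs share a mouse is not known. Alternatives changed the error model, normalization, filters, set term and samples. Promoters came from RefSeq (GRCm38.p6).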

Additional observations from a re-analysis of the deposited data

Results flagged for a closer look

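Masp1, a protease of the lectin pathway, had 1 sample far from the others. With the gap between the array sets taken out, so that all 8 knockouts stand at the level of set 1, knockout 4 was lowest at 8.96 and the nearest other knockout was at 9.15, a gap of 0.623 of their range. Of 64 groups of member values tested in this way, this was the only one past Dixon's limit, and chance alone passes about 1 in 20. Masp1 read 9.19, 9.24 and 9.27 in knockout 1 to 3 of the same set, and its difference between knockout and control was -0.04 ± 0.07.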

How the results depend on the processing

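No member was called under the other alternatives, each array left out included. The exceptions were the error models: trend with robust called 1 higher and 4 lower, and trend alone 1 higher and 3 lower. Other pathway genes called lower numbered 1 with quantile normalization, 5 with trend and robust, 2 with trend, 1 with a mean level of at least 5 and 1 at a threshold of 0.1. With trend and robust, leaving out each array gave 1 higher and 0 to 3 lower members. Over all genes, 84 higher and 53 lower calls became 1 and 1 with the replicate block, 45 and 22 with the repeated numbers averaged, 14 and 12 without control 1 and control 4, 201 and 124 with trend and robust, 198 and 123 with trend, 139 and 83 with a mean level of at least 5, 54 and 76 with centring on the brightest genes, and 0 and 0 without the set term. The median over the members was -0.0617, and -0.0809 to -0.0397 with each array left out (lowest in size without control 6), -0.0359 without control 1 and control 4, -0.0894 with quantile normalization and -0.095 with centring on the brightest genes. The replicate block beside the array set called no member. Deviations of same-numbered samples had r from 0.01 to 0.08. Differently numbered samples were not set beside them, so this cannot settle whether the numbers pair samples. Of 1080 single-gene comparisons 37 turned sign, none of them past the threshold: set 1 alone gave C9 0.0675, Cfb 0.0327, F12 -0.0559, Mbl1 0.0189 and Proc -0.0084; set 2 alone C2 0.0055, C8b -0.0445 and C8g -2e-04; without control 1 and control 4 C6 -0.0099, C9 0.0393 and Cfb 0.0142; without knockout 7 and 8 C8b -0.0275, F12 -0.0152 and Proc -0.023. Quantile normalization gave F12 -0.012 and Proc -0.013, centring on the brightest genes F12 -0.012, Proc -0.0324 and Serpind1 -0.0107, array weights C9 0.0085, averaging the repeated numbers Proc -8e-04, and the replicate block C6 -0.0385, C8b -0.0634, Cfb 0.0155, F12 -0.0156 and Proc -0.0221. With arrays left out, C8b ran from -0.0171 to 0.1185, C9 from -0.0721 to 0.0278, F12 from -0.001 to 0.0425 and Proc from -0.0104 to 0.0129. The cause was not tested.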

Other observations

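Levels of several members differed between the array sets more than between the groups. Masp1 read 8.96 to 9.31 over the 7 arrays of set 1 and 10.54 to 10.65 over those of set 2, a gap of 1.39, while its groups overlapped in both sets. Over the members, 43.8% had set means more than 0.5 apart, against 31.6% of all genes and 55.2% of genes with a mean level of at least 9.

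Of 18 liver transcription factors measured, none passed the threshold. Their differences ran from -1.12 to 0.27 (median 0.06), and the lowest interval bound was -1.70. At an unadjusted limma p under 0.05, 3 were lower and 1 higher, where 4.83% of all genes were lower and 5.53% higher. The C1q genes, whose products recognise antibody on surfaces and which macrophages express, had wide intervals: C1qa 0.05 (-0.41 to 0.52), C1qb 0.17 (-0.27 to 0.60) and C1qc 0.22 (-0.20 to 0.64).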
